A study of Mus musculus with 14 samples.

Results

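The AP-1 transcription factors were followed through 14 RNA-seq libraries of mouse intestinal stem cells. The members are the 8 genes Fos, Fosb, Fosl1, Fosl2, Jun, Junb, Jund and Atf3, taken by symbol from count tables of 55335 genes each, and all 8 passed the filter on low counts in both tables. In mice without the procedure ES (NT mice), transcripts of 6 members were higher with Chrm3 knockout by tamoxifen (KO) than with vehicle (WT), with Atf3 at 6.88-fold. In 18-month-old mice 7 of the 8 were higher than in 2-month-old mice, with Atf3 at 2.94-fold and the sparsely counted Fosl1 at 4.38-fold. Of all tested genes, 2.36% passed as higher in the knockout comparison and 4.42% in the age comparison. ES moved no member past the test in either genotype. In WT this turned on the estimate of the spread, since 6 members passed when only the WT mice were fitted.

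AP-1 is a dimer of basic leucine zipper (bZIP) proteins. Fos family proteins (Fos, Fosb, Fosl1, Fosl2) bind DNA only with a partner, usually a Jun family protein (Jun, Junb, Jund), whereas Jun proteins can also pair with each other. Atf3 pairs with Jun proteins and can repress or activate. Fos, Fosb, Jun, Junb and Atf3 are immediate early genes: growth factors, stress and also the mechanical and enzymatic steps of making single cells from tissue induce them within minutes, and their mRNAs are short-lived. In the gut epithelium, Jun is known as a target and partner of Wnt signalling, which maintains the stem cells.

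All cells were sorted for the EGFP that marks Lgr5-expressing stem cells at the crypt base. KO ES, KO NT, WT ES and WT NT mice (n = 2 libraries each) all carried Lgr5CreERT2-IRES-GFP; Chrm3flox/flox, so that Cre acts in Lgr5 cells only. KO mice received TAM (tamoxifen) and WT mice vehicle, during 3 days before ES, so genotype and injection changed together and cannot be told apart. Chrm3 encodes the M3 muscarinic acetylcholine receptor, ES is a stress procedure that the labels do not spell out, and the age of these mice is not in the labels. Old mice, at 18 months, and young mice, at 2 months (n = 3 libraries each), carried Lgr5CreERT2-IRES-GFP without the floxed allele. The labels do not say that libraries came from separate animals, so p-values reflect only how far libraries scatter within groups, which may be technical. All groups of a table share a single estimate of that spread, including groups outside the comparison.

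Levels are given as CPM, counts scaled to a common library size with TMM factors for composition, and a member is said to have risen or fallen, or to be called, where its adjusted p was under 0.05. Total counts ranged from 26683563 to 36882310 per library, which left every member but Fosl1 with at least 604 counts in each library. The mitochondrial share of counts was 8.74% in 1 library, KO NT replicate 2, and 6.12% to 7.53% elsewhere. Chrm3 had 9.24 and 7.71 CPM in KO NT, against 11.2 and 13.0 CPM in WT NT, and its log2 difference of -0.50 ± 0.16 (SE) did not pass (adjusted p = 0.119, edgeR quasi-likelihood test). In ES mice Chrm3 had 8.13 and 6.04 CPM in KO, against 11.6 and 10.9 CPM in WT, and fell by 0.68 ± 0.17 (adjusted p = 0.0363). Most Chrm3 transcript was thus still counted in KO libraries, and the labels do not say which exons were floxed. Of the 12 stem cell markers, none was at 0 in any library, and their summed level lay between 11498 and 17011 CPM. Markers of goblet cells summed to between 2425 and 10061 CPM, so the sorted cells also held secretory transcripts.

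The start sites of the members are shown first, because members that move together may carry related sequence there. Windows of 250 bases before to 50 after the start were found for 7 of the 8 members in RefSeq (GRCm38.p6). Those of Fos, Jun and Atf3 are printed for the 250 bases upstream. Fos and Jun had the highest levels per length, and Atf3 had the largest fold change past the test. Capitals mark the letters TNACNTCA, which ATF and CREB proteins and Jun-ATF dimers can bind, and TGACG, the core letters of the cyclic AMP response element (CRE), each searched on both strands. The Fos bases lie at chr12:85473640-85473889 (+ strand), the Jun bases at chr4:95052223-95052472 (- strand) and the Atf3 bases at chr1:191183334-191183583 (- strand).
Fos: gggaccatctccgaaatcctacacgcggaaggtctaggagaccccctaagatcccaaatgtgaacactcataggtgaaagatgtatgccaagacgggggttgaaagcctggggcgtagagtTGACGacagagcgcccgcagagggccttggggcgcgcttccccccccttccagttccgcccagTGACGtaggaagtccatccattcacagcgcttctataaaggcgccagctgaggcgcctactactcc
Jun: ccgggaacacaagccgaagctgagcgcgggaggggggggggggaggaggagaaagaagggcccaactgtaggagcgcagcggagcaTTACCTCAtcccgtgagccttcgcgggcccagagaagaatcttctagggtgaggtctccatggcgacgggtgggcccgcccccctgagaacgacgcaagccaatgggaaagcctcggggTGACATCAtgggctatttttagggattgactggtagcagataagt
Atf3: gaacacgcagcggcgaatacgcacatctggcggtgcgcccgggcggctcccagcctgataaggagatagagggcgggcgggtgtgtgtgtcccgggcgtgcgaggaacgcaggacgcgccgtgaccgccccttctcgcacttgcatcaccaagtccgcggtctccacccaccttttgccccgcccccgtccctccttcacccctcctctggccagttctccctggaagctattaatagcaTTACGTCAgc
In Fos the core letters began at positions -129 and -66 from the start. In Jun the 8-base matches TTACCTCA and TGACATCA began at -164 and -45, and in Atf3 TTACGTCA began at -10, its last 5 letters being the CRE core on the other strand.

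Over the 7 windows, TNACNTCA was found in 3 (Jun, Jund and Atf3), and 16.4% of all 32851 RefSeq windows of that length held it. The CRE core TGACG was found in 4 (Fos, Fosb, Junb and Atf3), against 20.8% of all windows. None of the 7 held TGANTCA, the AP-1 site itself, the full CRE TGACGTCA or the CArG box of serum response factor, which were in 7.81%, 1.79% and 1.63% of all windows. Bases further upstream were not searched, so these absences hold only within the windows. The full CRE is also a match to TNACNTCA and holds TGACG. The motifs were chosen with the sequences in view, and a match is a description of the letters, not of binding. The window of Jund ends before the annotated gene, whose start lies 1210 bases downstream, and that of Atf3 lies 34706 bases inside the annotated span of a gene with an upstream start.

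In GENCODE M21 (GRCm38), Fos (ENSMUSG00000021250) spans chr12:85473890-85477273 and Jun (ENSMUSG00000052684) spans chr4:95049034-95052222. Fosb is on chromosome 7, Fosl1 on 19, Fosl2 on 5, Junb and Jund on 8, and Atf3 (ENSMUSG00000026628) at chr1:191170296-191218039. Exons of 4 members overlap those of a gene on the other strand: Fosl1 shares 1163 of its 2033 exon bases with Ccdc85b, Jund shares 877 of 1668 with Gm11175, Jun shares 232 of 3189 with Junos, and Junb shares 173 of 2301 with Prdx2. The libraries were strand-specific per the labels, but the strand setting of the counting is not given. Junos had at most 46 counts and Gm11175 at most 6 in any library. Ccdc85b had 124 to 314 counts, more than Fosl1 in every library, and Prdx2 had 4650 to 7225, so the values of Fosl1 and, to a smaller extent, Junb are uncertain. The level of Jund is uncertain too, because low counts of Gm11175 do not show how reads in the overlap were assigned.

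Per length of exon, as RPKM (the CPM divided by the exon length in kilobases), Fos was the most abundant member in all 6 groups, followed by Jun and then Jund. Mean levels of Fos were 274 RPKM in KO ES, 353 in KO NT, 225 in WT ES and 160 in WT NT, and 452 in old and 286 in young. The 2 tables were normalised separately, so levels in the Chrm3 mice and in the ageing mice were not compared by a test. Jun followed at 189, 223, 122 and 94.5 RPKM in the same 4 Chrm3 groups, and at 240 in old and 165 in young. The places after Jund changed with the group. In WT NT the order ran Junb (38.1 ± 1.6 RPKM, SD, n = 2), Fosb (22.5 ± 1.0), Fosl2 (11.0 ± 0.6) and Atf3 (9.38 ± 0.06), with no overlap between neighbours. Such an order depends on the exon length used, 6243 bases for Fosb and 2301 for Junb. By mean CPM in WT NT, Fosb (141) lay above Junb (87.7). In KO NT, Jund, Fosb, Junb and Atf3 formed a chain in which each overlapped the next, with Atf3 at 64.6 ± 26 RPKM. In old, Jund, Atf3, Fosb and Junb overlapped in the same way, with Atf3 at 104 ± 13 RPKM (n = 3). Fosl1 was last in every group, at no more than 0.57 RPKM in any library.

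The share of Atf3 in the family was higher in KO than in WT libraries and higher in old than in young libraries. It was 5.07% and 5.12% of the summed RPKM of the 8 members in KO ES, 6.05% and 7.59% in KO NT, 2.34% and 3.06% in WT ES, and 2.31% and 2.28% in WT NT. It was 8.96% to 9.54% in old, against 4.93%, 4.58% and 5.08% in young. The ratio of Fosb to Fos RPKM also differed by genotype, at 0.20 to 0.27 in the 4 KO libraries and 0.13 to 0.19 in the 4 WT libraries. In the ageing table it did not separate, with 0.22 to 0.24 in old and 0.21 to 0.24 in young. The Fos family as a whole held 45.9% to 52.5% of the summed RPKM in every library.

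**Figure D1:**
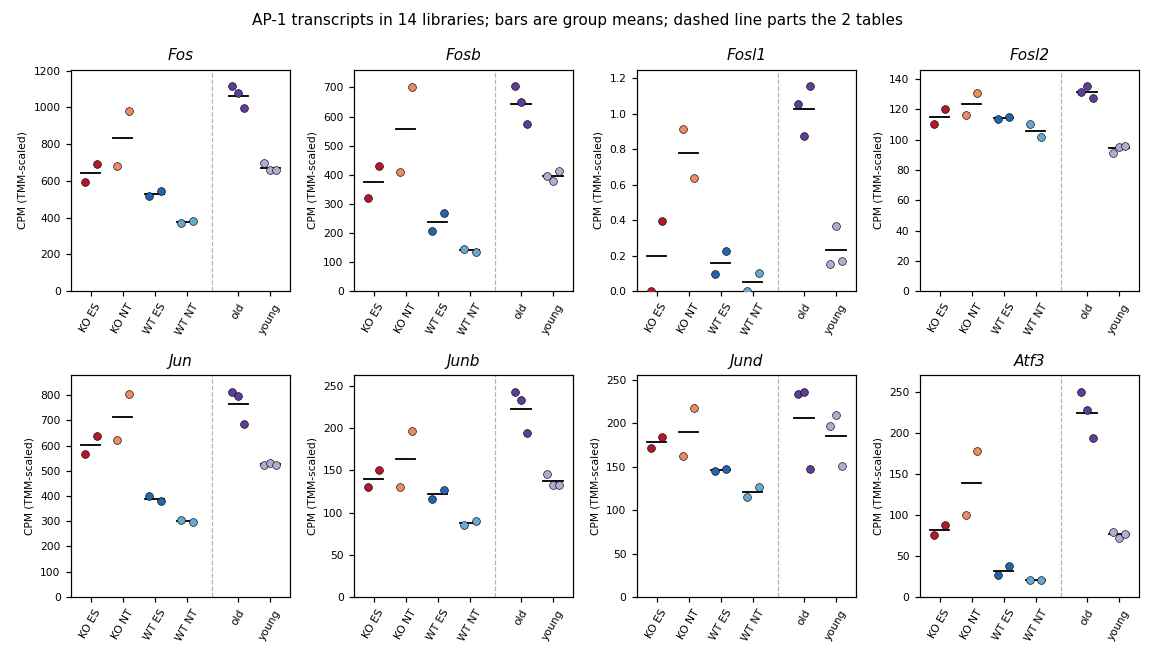
Level of each AP-1 member (CPM after TMM scaling, linear axes from 0) in each of the 14 libraries; points are libraries and bars group means. KO NT libraries lie above WT NT for all 8 members, as for 22.7% of all tested genes, and old libraries lie above young for all but Jund, as for 13.2% of all tested genes. For Jund old ranged from 147 to 236 CPM and young from 151 to 210 CPM.

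The first comparison sets KO mice, given tamoxifen, against WT mice, given vehicle, both without ES. Fos, the main Fos family subunit, had 682 and 980 CPM in KO NT, against 371 and 381 CPM in WT NT. Jun, its usual partner, had 620 and 803 CPM in KO NT, against 304 and 299 CPM in WT NT. Both groups were apart for both genes, and KO NT replicate 2 was the higher of its pair. Fos rose by 1.15 ± 0.14 on the log2 scale (adjusted p = 0.00103), and Jun by 1.24 ± 0.10 (adjusted p = 0.000101), a 2.36-fold difference.

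Atf3, the stress-induced member, had 99.5 and 179 CPM in KO NT, against 20.1 and 20.3 CPM in WT NT. Even the lower KO NT library was several times above both WT NT libraries, and the log2 fold change was 2.78 ± 0.24 (adjusted p = 0.000135). Fosb, which has a stable truncated splice form in neurons, had 409 and 703 CPM in KO NT, against 145 and 136 CPM in WT NT. It rose by 1.98 ± 0.22 (adjusted p = 0.000765).

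The other Jun proteins rose less. Junb, often an antagonist of Jun in the cell cycle, had 131 and 196 CPM in KO NT, against 85.2 and 90.2 CPM in WT NT, and rose by 0.90 ± 0.15 (adjusted p = 0.00837). Jund, the constitutively expressed Jun protein, had 162 and 217 CPM in KO NT, against 116 and 127 CPM in WT NT, and rose by 0.64 ± 0.11 (adjusted p = 0.0106). Fosl2, a Fos protein without a strong transactivation domain, had 116 and 131 CPM in KO NT, against 110 and 102 CPM in WT NT. Its log2 fold change of 0.22 ± 0.08 did not pass (adjusted p = 0.146), although the groups did not overlap.

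Fosl1, a target of AP-1 itself, was counted 34 and 21 times in KO NT, against 0 and 3 times in WT NT. The ratio of the summed counts, scaled for library size, was 16.1 with a 95% counting interval of 5.23 to 80.5, which covers counting error only. Its fitted change did not pass (adjusted p = 0.0580).

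In all, 6 of 8 members were called higher and none lower in KO NT against WT NT, where 2.36% of the 17364 genes tested were called higher and 2.11% lower. Both KO NT libraries lay above both WT NT libraries for all 8, as they did for 22.7% of the tested genes. The median log2 fold change was 1.19 over the members and -0.01 over all tested genes. All 6 calls held without KO NT replicate 2, the library with the highest mitochondrial share. Junb and Jund were not called when either WT NT library was left out (adjusted p of 0.122 and 0.0927 for Junb, 0.148 and 0.0838 for Jund) or without the count filter (adjusted p = 0.0572 for both), so the count was then 4.

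**Figure D2:**
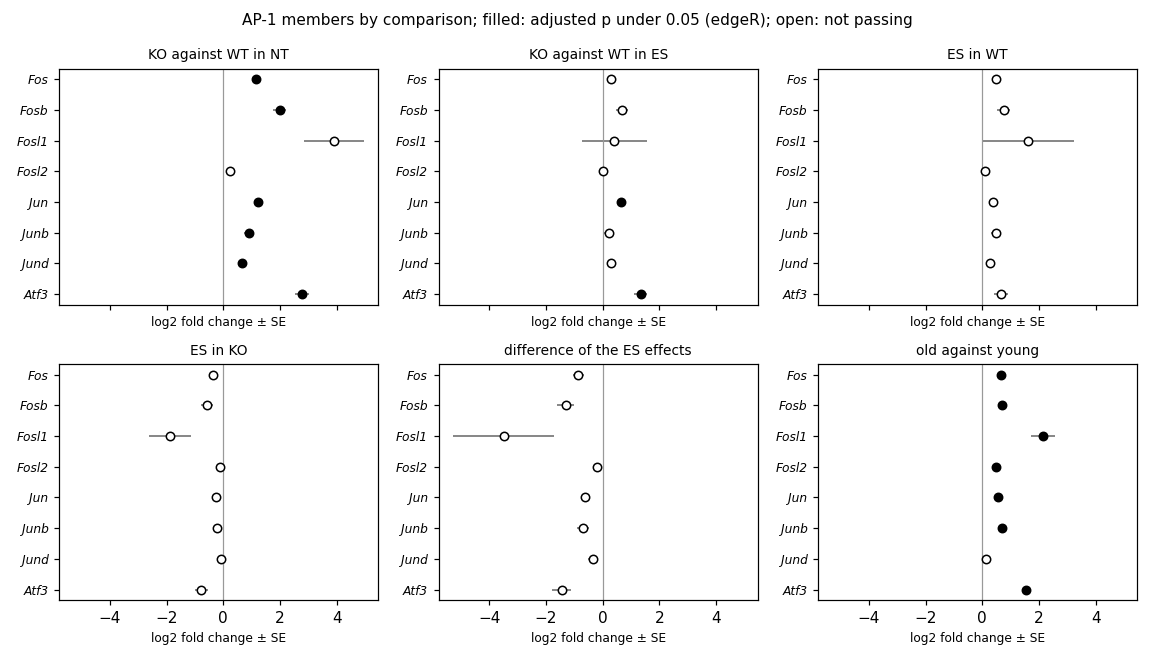
Log2 fold change (x axis) of each member in the 6 comparisons, with bars of 1 standard error; filled points passed an adjusted p of 0.05 and open points did not. For KO against WT in NT, 6 points are filled and all 8 lie right of 0; for ES in KO and the difference of the ES effects all 8 lie left of 0 and none is filled.

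The same genotype comparison was made in ES mice. Jun had 567 and 637 CPM in KO ES, against 398 and 381 CPM in WT ES, and rose by 0.63 ± 0.10 (adjusted p = 0.00540). Atf3 had 75.0 and 87.4 CPM in KO ES, against 27.2 and 37.3 CPM in WT ES, and rose by 1.34 ± 0.23 (adjusted p = 0.00728), a 2.53-fold difference. These were the 2 members called, where 3.09% of genes were called higher and 4.47% lower.

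Fos had 595 and 693 CPM in KO ES, against 515 and 544 CPM in WT ES, a log2 fold change of 0.28 ± 0.13 (adjusted p = 0.241). Fosb had 321 and 431 CPM in KO ES, against 206 and 267 CPM in WT ES, and its log2 fold change was 0.67 ± 0.22 (adjusted p = 0.0924). Both libraries of KO ES lay above both of WT ES for 6 members, all but Fosl1 and Fosl2, as they did for 27% of all tested genes. Over the members the median log2 fold change was 0.35.

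The calls in ES mice rested on few libraries. Without KO ES replicate 2 neither Jun (adjusted p = 0.0555) nor Atf3 (adjusted p = 0.0659) passed, and without WT ES replicate 1 Atf3 did not (adjusted p = 0.0746). Leaving out either KO NT library, which is not in the comparison but enters the shared estimate of the spread, gave 5 called members.

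The effect of ES itself in WT cells fell short of the test. Fos had 515 and 544 CPM in WT ES, against 371 and 381 CPM in WT NT, and a log2 fold change of 0.49 ± 0.13 (adjusted p = 0.0733). Jun had 398 and 381 CPM in WT ES, against 304 and 299 CPM in WT NT, and a log2 fold change of 0.37 ± 0.10 (adjusted p = 0.0789). For both genes the groups were apart.

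For Junb the values were 116 and 127 CPM in WT ES, against 85.2 and 90.2 CPM in WT NT, with a log2 fold change of 0.47 ± 0.15 (adjusted p = 0.124). Fosb had 206 and 267 CPM in WT ES, against 145 and 136 CPM in WT NT, with 0.75 ± 0.22 (adjusted p = 0.0929). Atf3 had 27.2 and 37.3 CPM in WT ES, against 20.1 and 20.3 CPM in WT NT, with 0.67 ± 0.25 (adjusted p = 0.180).

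No member was called in WT ES against WT NT by edgeR, where 2.1% of genes were called higher and 1.39% lower, although 6 members had an unadjusted p under 0.05, as did 3225 of the 17364 genes tested. All 8 had positive log2 fold changes, with a median of 0.48. Both WT ES libraries lay above both WT NT libraries for 7 members, all but Fosl1, as they did for 26% of all tested genes. DESeq2 called 1 member, Jun (adjusted p = 0.00296), and limma-voom none. The outcome turned on the spread: 6 members were called, with nearly the same fold changes, when only WT ES and WT NT were fitted, or when either KO NT library was left out.

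In KO cells the signs were the other way. Atf3 had 75.0 and 87.4 CPM in KO ES, against 99.5 and 179 CPM in KO NT, a log2 fold change of -0.77 ± 0.22 (adjusted p = 0.225). Fos had 595 and 693 CPM in KO ES, against 682 and 980 CPM in KO NT, a log2 fold change of -0.37 ± 0.13 (adjusted p = 0.428). The Fos groups overlapped and the Atf3 groups did not.

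Jun had 567 and 637 CPM in KO ES, against 620 and 803 CPM in KO NT, with -0.24 ± 0.10 (adjusted p = 0.538). Fosl1 was counted 0 and 14 times in KO ES, against 34 and 21 times in KO NT, a ratio of 0.27 with a counting interval of 0.14 to 0.49. Only Atf3 and Fosl1 lay wholly below in KO ES, as did 16.1% of all tested genes.

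No member was called in KO ES against KO NT by edgeR, where 0.415% of genes were called higher and 0.0979% lower. At an unadjusted p under 0.05 there were 5 members, all with negative signs, and 1493 of the 17364 genes tested, and DESeq2 and limma-voom called none. The median log2 fold change over the 8 was -0.30. Without KO NT replicate 1, 5 members were called lower (Fos, Fosb, Jun, Junb and Atf3). Without KO NT replicate 2 none was, and Junb and Jund turned positive, at 0.10 and 0.13.

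The difference of the ES effects, in KO minus in WT, was negative for all 8 members, with a median of -0.78. It was -0.86 ± 0.19 for Fos (adjusted p = 0.135), -0.61 ± 0.15 for Jun (adjusted p = 0.153), -1.31 ± 0.31 for Fosb (adjusted p = 0.149) and -1.44 ± 0.33 for Atf3 (adjusted p = 0.148). No member passed, where 0.0115% of genes were called higher and 0.0979% lower, and 6 had an unadjusted p under 0.05, as did 1999 of all tested genes. Here DESeq2 called Jun alone (adjusted p = 0.00119) and limma-voom none. Without KO NT replicate 1 there were 6 called members, and without KO NT replicate 2 only Fos was called (adjusted p = 0.0377). The comparisons in the Chrm3 table share libraries: KO NT enters the genotype comparison, the ES effect in KO and this difference, so a high KO NT library moves all of them.

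In the ageing table the old libraries were compared with the young ones. Fos had 1116, 1081 and 995 CPM in old, against 697, 657 and 661 CPM in young, and rose by 0.66 ± 0.06 (adjusted p = 5.86e-05). Jun had 813, 795 and 685 CPM in old, against 524, 529 and 521 CPM in young, and rose by 0.54 ± 0.06 (adjusted p = 0.000566). Old replicate 3 was the lowest old library for both genes and still lay above all young libraries.

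Atf3 had 250, 228 and 194 CPM in old, against 79.8, 72.3 and 77.0 CPM in young. Its rise of 1.55 ± 0.09 (adjusted p = 4.32e-06) ranked 8 by p among the 16807 genes tested. Fosb had 705, 649 and 576 CPM in old, against 395, 378 and 413 CPM in young, and rose by 0.70 ± 0.07 (adjusted p = 0.000210).

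Junb had 243, 233 and 194 CPM in old, against 145, 133 and 133 CPM in young, and rose by 0.71 ± 0.08 (adjusted p = 0.000429). Fosl2, which did not pass in any comparison of the Chrm3 table, had 131, 135 and 127 CPM in old, against 91.4, 95.4 and 96.2 CPM in young, and rose by 0.48 ± 0.05 (adjusted p = 0.000421). For Fosl2, the spread within each age was small beside the difference.

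Jund was the exception. It had 234, 236 and 147 CPM in old, against 197, 210 and 151 CPM in young, so the groups overlapped and replicate 3 was the low library at both ages. Its log2 fold change was 0.15 ± 0.17 (adjusted p = 0.683). Fosl1 had 35, 31 and 37 counts in old, against 5, 13 and 6 counts in young, a ratio of 4.44 with a counting interval of 2.82 to 7.23, and rose by 2.13 ± 0.43 (adjusted p = 0.0116).

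In old against young, 7 of 8 members were called higher and none lower, where 4.42% of genes were called higher and 3.42% lower. All 3 old libraries lay above all 3 young ones for these 7, as they did for 13.2% of the tested genes. The median log2 fold change was 0.68 over the members and 0.00 over all tested genes. Fosl1 was not called when old replicate 1, young replicate 1 or young replicate 3 was left out (adjusted p of 0.0544, 0.0657 and 0.0548). The other 6 calls held in each of the leave-one-out fits.

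KO against WT in NT and old against young share no library. Atf3 and Fosl1 had the largest log2 fold changes in both, at 2.78 and 3.90 in KO NT against WT NT and at 1.55 and 2.13 in old against young. Jund and Fosl2 had the smallest, at 0.64 and 0.22 in KO NT against WT NT and at 0.15 and 0.48 in old against young. Over the 8 members the sizes in these comparisons had a Spearman's rho of 0.81, which is a description of 8 related genes and not a test.

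Some of the genes that are induced in the same minutes, and that are also known to be induced by tissue dissociation, moved with the members. Of 23 early response genes outside the family, 13 rose and none fell in KO NT against WT NT, with a median log2 fold change of 0.62. Of all tested genes, 2.36% rose there. The 3 with the smallest p were Nr4a1, an orphan nuclear receptor, at 2.48 ± 0.25 (adjusted p = 0.000384), Cyr61, a matricellular protein, at 1.61 ± 0.17 (adjusted p = 0.000410), and Dusp1, a phosphatase that switches off MAP kinases, at 1.55 ± 0.17 (adjusted p = 0.000758). Their summed level was 2008 and 2805 CPM in KO NT, against 1457 and 1456 CPM in WT NT, so KO NT replicate 2 was also highest here. In old against young, 13 of 23 rose and none fell, with a median of 0.50, where 4.42% of all tested genes rose. Dusp1 stood at 1.05 ± 0.07 (adjusted p = 1.09e-05), Zfp36, which destabilises AU-rich mRNAs, at 0.81 ± 0.06 (adjusted p = 1.86e-05), and Egr1, a zinc finger factor, at 0.88 ± 0.06 (adjusted p = 2.06e-05). Their sum was 3080, 2944 and 2795 CPM in old, against 1900, 1874 and 1915 CPM in young.

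In KO ES against WT ES, 4 early response genes rose and none fell, Nfkbia (0.43 ± 0.09, adjusted p = 0.0123), Cyr61 (0.78 ± 0.17, adjusted p = 0.0189) and Dusp1 (0.79 ± 0.17, adjusted p = 0.0208) first among them, and the median was 0.16. ES in WT gave 1 rise, Nfkbia at 0.37 ± 0.09 (adjusted p = 0.0469), with a median of 0.25. ES in KO and the difference of the ES effects gave none in either direction, with medians of -0.28 and -0.50. Of all tested genes, 3.09% rose in KO ES against WT ES and 2.1% with ES in WT.

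Heat shock genes, another group induced by dissociation, moved less uniformly. In KO NT against WT NT 3 of 11 rose, namely Dnajb1 (0.66 ± 0.07, adjusted p = 0.000576), Hspa1a (2.12 ± 0.28, adjusted p = 0.00193) and Hspa1b (1.84 ± 0.30, adjusted p = 0.00662), and none fell. Hspa1a, the inducible Hsp70, had 4.39 and 3.37 CPM in KO NT, against 0.91 and 0.87 CPM in WT NT. In old against young 3 of 10 rose, Hsph1 (0.64 ± 0.06, adjusted p = 0.000197), Dnajb1 (0.44 ± 0.08, adjusted p = 0.00534) and Dnaja1 (0.18 ± 0.05, adjusted p = 0.0475). Hspa1a had 9.68, 7.96 and 5.35 CPM in old, against 16.2, 15.6 and 2.15 CPM in young, so it overlapped between the ages. Hsph1 rose in WT ES against WT NT (0.59 ± 0.13, adjusted p = 0.0350) and fell in KO ES against WT ES by 0.84 ± 0.13 (adjusted p = 0.00330), and ES in KO and the difference of the ES effects gave no call. The median over the list was 0.16 in KO NT against WT NT and 0.10 in old against young, where 2.36% and 4.42% of all tested genes rose. The labels give no dissociation time, sorting order or processing day, and the part of tissue handling in the AP-1 values was not tested.

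**Figure D3:**
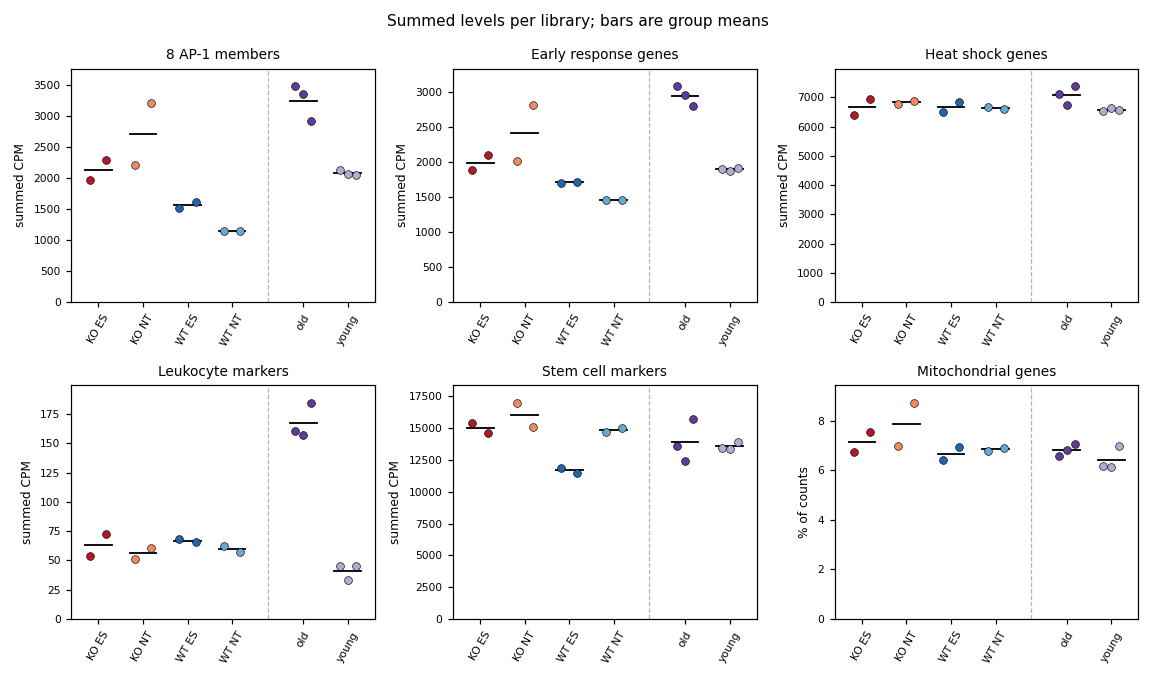
Summed CPM per library of the 8 AP-1 members, of 23 early response genes, of 11 heat shock genes, of leukocyte and of stem cell markers, and the percentage of counts from mitochondrial genes; points are libraries and bars group means. The AP-1 sum was 2222 and 3210 CPM in KO NT, against 1151 and 1155 CPM in WT NT, and 3494, 3359 and 2919 CPM in old, against 2130, 2076 and 2052 CPM in young.

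Markers of other cells also moved. All 7 goblet cell markers fell in KO NT against WT NT, with a median of -1.02, and in KO ES against WT ES, with -1.07. They rose with ES in WT (7 of 7) and in KO (6 of 7). The goblet sum was 2507 and 2425 CPM in KO NT, against 4946 and 4832 CPM in WT NT. Of the 12 stem cell markers, 9 fell with ES in WT (median -0.40) and none passed with ES in KO. In KO ES against WT ES 6 of them rose, in KO NT against WT NT 1 fell, and in old 1 rose and 1 fell. Their sum was 14610 to 15406 CPM in KO ES, 15114 to 17011 CPM in KO NT, 11498 to 11894 CPM in WT ES and 14685 to 15017 CPM in WT NT.

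Of the 10 absorptive enterocyte markers, 9 fell in KO ES against WT ES (median -1.44), 3 fell with ES in KO, 2 rose with ES in WT and 1 rose in KO NT against WT NT. Their sum was 564 to 711 CPM in KO ES, 669 to 1172 CPM in KO NT, 1135 to 1417 CPM in WT ES and 749 to 758 CPM in WT NT. In the difference of the ES effects, 3 enterocyte markers and 1 goblet marker were called lower, where 0.0979% of all tested genes were. No marker of the other cell types passed there. Of the 6 tuft cell markers, 5 fell in KO NT against WT NT (median -1.28), 3 in KO ES against WT ES and 4 in old (median -0.87), and none passed with ES in either genotype. The tuft sum was 67.6 to 68.4 CPM in old, against 120 to 149 CPM in young. Of the 6 enteroendocrine markers, 4 rose in old (median 0.67), 3 rose with ES in WT, 4 fell in KO ES against WT ES and 1 fell in KO NT against WT NT. Their sum was 293 to 421 CPM in old, against 200 to 226 CPM in young. Of the 6 Paneth cell markers, 2 rose with ES in each genotype, 1 fell in each comparison of KO with WT and 3 fell in old. In old, 2 enterocyte markers rose and 1 fell, and 3 goblet markers rose and 2 fell. In bulk libraries such as these, fewer cells of a type and less RNA per cell cannot be told apart.

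Leukocyte markers differed with age. Of the 8 tested in old against young, 7 rose in old and none fell, with Gzma at 2.51 ± 0.13 (adjusted p = 2.37e-06), Cd8a at 2.63 ± 0.19 (adjusted p = 1.86e-05) and Gzmb at 1.68 ± 0.16 (adjusted p = 0.000147). The sum of the 10 listed markers was 157 to 185 CPM in old, against 33.3 to 45.1 CPM in young, and Cd3e, which defines T cells, had 6.29 to 7.97 CPM in old and 0.77 to 2.06 CPM in young. Leukocytes also express AP-1 genes. In the Chrm3 table the sum was 51.4 to 60.9 CPM in KO NT, against 57.4 to 62.6 CPM in WT NT, and no leukocyte marker passed in any comparison. Stromal and endothelial markers summed to at most 9.25 CPM in any library, with 6 to 8 of the 10 at 0. The part of other cell types in the AP-1 values was not tested.

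Other bZIP proteins that pair or compete with Fos and Jun changed in part. In KO NT against WT NT 3 of 10 rose and none fell: Mafk and Maff, small Maf proteins that lack a transactivation domain, at 1.00 ± 0.16 (adjusted p = 0.00713) and 1.59 ± 0.30 (adjusted p = 0.0155), and Atf4, the integrated stress response factor, at 0.37 ± 0.06 (adjusted p = 0.00725). In old against young 2 of 10 rose, Mafk at 0.67 ± 0.06 (adjusted p = 8.38e-05) and Maff at 1.44 ± 0.13 (adjusted p = 9e-05). Of all tested genes, 4.42% rose there and 2.36% in KO NT against WT NT. Maff had 23.7, 21.2 and 17.6 CPM in old, against 7.71, 7.70 and 7.70 CPM in young. In KO ES against WT ES none rose, while Maf fell by 1.27 ± 0.20 (adjusted p = 0.00483) and Batf2 by 0.59 ± 0.14 (adjusted p = 0.0297). Batf2 rose with ES in WT, at 0.65 ± 0.14 (adjusted p = 0.0358), and the ES effect in KO and the difference of the ES effects gave no call.

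Transcripts of the kinases and factors that induce or activate AP-1 come next. Of all tested genes, 2.36% rose in KO NT against WT NT and 3.09% in KO ES against WT ES. Of 20 tested, including the ERK, JNK and p38 kinases, Srf rose in KO NT against WT NT (0.34 ± 0.08, adjusted p = 0.0480) and Mapk14, which encodes p38 alpha, rose in KO ES against WT ES (0.33 ± 0.07, adjusted p = 0.0158). None passed in the other 4 comparisons. The median over the list was 0.02 in KO NT against WT NT and 0.07 in old against young. These are transcript levels, and kinase activity was not measured.

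Some of the genes with known AP-1 sites passed in KO NT against WT NT and in old against young. Of all tested genes, 2.36% and 4.42% rose in these comparisons. In KO NT against WT NT 3 of 11 tested rose, and these included the growth factors of the EGF receptor Areg (2.05 ± 0.25, adjusted p = 0.00116) and Hbegf (1.59 ± 0.24, adjusted p = 0.00444), with Vegfa, the angiogenic factor, at 0.39 ± 0.09 (adjusted p = 0.0447). None fell, and the median was -0.04. Hbegf had 60.2 and 112 CPM in KO NT, against 29.8 and 27.4 CPM in WT NT. In old against young 2 of 12 rose, Hbegf at 0.98 ± 0.10 (adjusted p = 0.000284) and Areg at 1.34 ± 0.21 (adjusted p = 0.00312), while Ezr, which links actin to the membrane, fell by 0.31 ± 0.05 (adjusted p = 0.00338). The median was 0.04, and none of the list passed in the other 4 comparisons.

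Likeness of profile was measured as the root-mean-square difference of log2 CPM, centred on the mean of the 8 Chrm3 libraries, among 10259 genes with a mean of at least 5 CPM that are not members. Closest to Fos was Zfp36 at 0.049, then Egr1 at 0.11 and Mafk at 0.12. For Jun they were Dusp1 (0.15), Zfp36 (0.16) and H2-T3 (0.17), a non-classical MHC class I gene. For Junb they were Zfp36 (0.098), the mitochondrial rRNA mt-Rnr2 (0.098) and Mafk (0.12). For Atf3, whose range was wider than those of Fos, Jun and Junb, they were Nr4a1 (0.29), Plk3 (0.37), a stress-responsive kinase, and Csrnp1 (0.39).

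Over the 6 ageing libraries, which the choice did not use, Zfp36 stayed at 0.074 from Fos and Mafk at 0.025. Egr1 was 0.14 from Fos. The distances from Jun were 0.26 for Dusp1, 0.14 for Zfp36 and 0.27 for H2-T3. Those from Junb were 0.076 for Zfp36, 0.29 for mt-Rnr2 and 0.073 for Mafk, and those from Atf3 were 0.12 for Nr4a1, 0.31 for Plk3 and 0.41 for Csrnp1. In old against young all of these genes rose except H2-T3, at 0.01 ± 0.06 on the log2 scale (adjusted p = 0.939), and mt-Rnr2, at 0.17 ± 0.05 (adjusted p = 0.0765). Among the members themselves, the closest pair in the Chrm3 table was Fos and Junb (0.10). Junb and Jund were 0.11 apart there, but 0.34 apart in the ageing table.

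**Figure D4:**
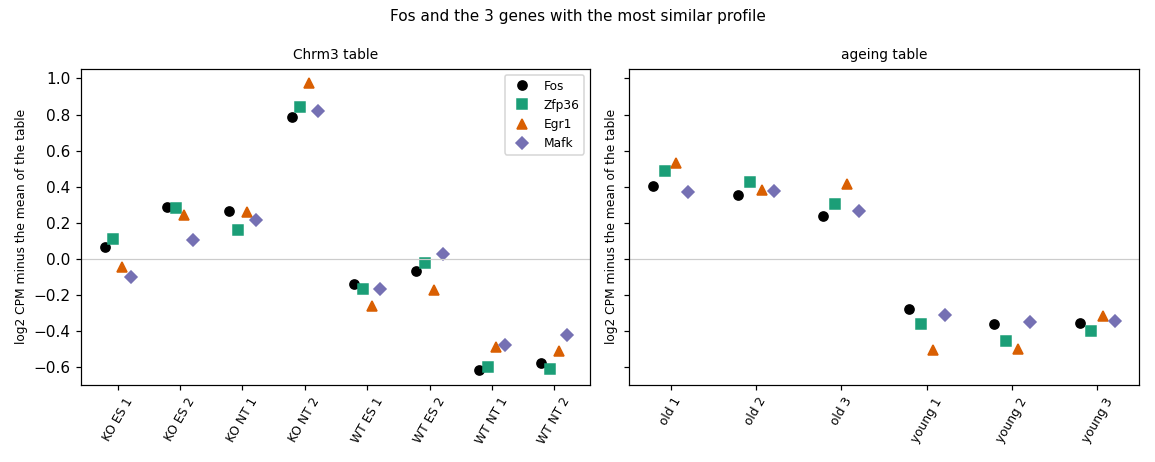
Log2 CPM of Fos and of the 3 genes with the most similar profile, Zfp36, Egr1 and Mafk, minus each gene's mean over its table, in each library of the Chrm3 table (left) and of the ageing table (right). In the left panel KO NT replicate 2 is highest and the WT NT libraries lowest for all 4 genes; in the right panel the old libraries lie above 0 and the young libraries below 0 for all 4.

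**Figure D5:**
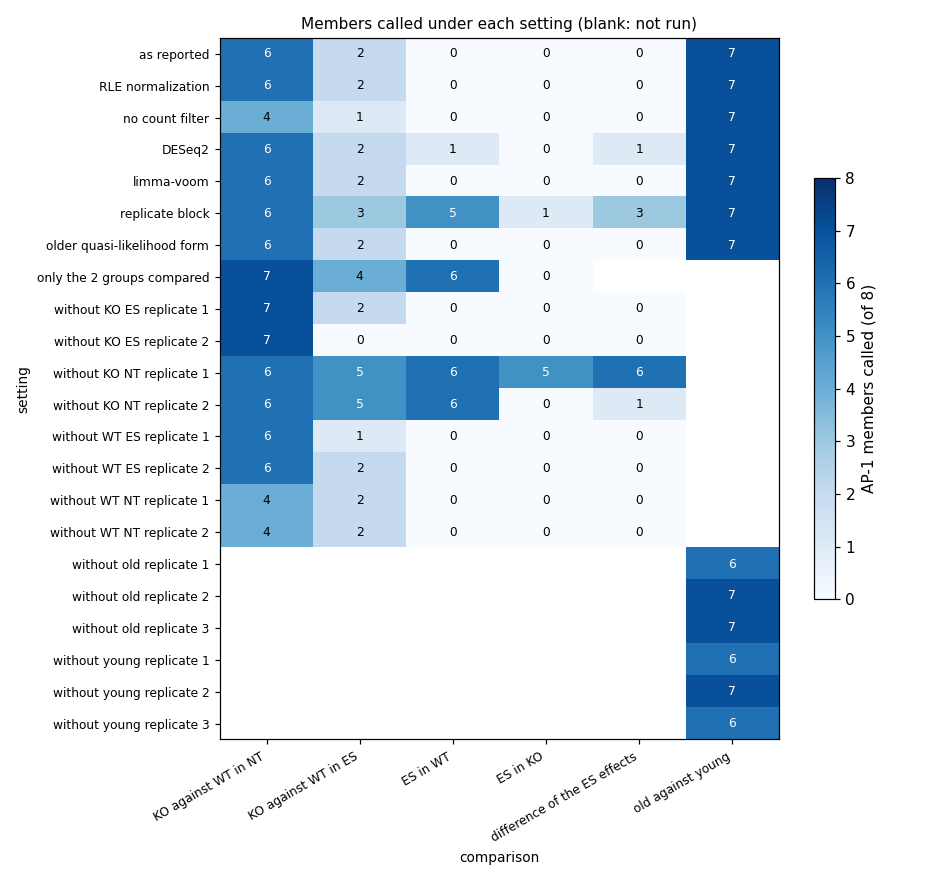
Number of the 8 members called (cell values) in each comparison (columns) under each setting of the test (rows); blank cells were not run. The count for old against young stays between 6 and 7 and that for KO against WT in NT between 4 and 7, while ES in WT, with 0 as reported, reaches 6 when either KO NT library is left out.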

How the data were processed

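Polyadenylated RNA of sorted cells went into TruSeq libraries that keep the strand, per the labels' protocols. The authors deposited whole-number counts per Ensembl gene, not normalized, in 1 table for the 8 Chrm3 libraries and 1 for the 6 ageing libraries. The submitters' processing notes name mm10 and FastQC 0.11.2. Aligner and counting tool: not given in the sources used here. Columns named Ctrl were read as NT.

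Each table was filtered with filterByExpr, scaled by TMM and fitted with one mean per group by the quasi-likelihood test of edgeR 4.0.16 in R 4.3.3. Adjusted p-values are Benjamini-Hochberg values over every gene tested, and members with an adjusted p under 0.05 are called. The ± after a log2 fold change is an approximate standard error, and after a level the SD. CPM are TMM-scaled, and RPKM are CPM per kilobase of merged exons. Where a symbol had 2 rows, the row with more counts stood for it in the lists. Fosl1 ratios have exact 95% counting intervals. The code was tested on simulated data. Alternatives were RLE scaling, no filter, DESeq2 1.42.0, limma-voom (limma 3.58.1), a replicate term, only the 2 groups compared, each library left out and, chosen after seeing the data, the older quasi-likelihood form.

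For the cell type markers, only leukocyte genes are named, and the others are given as counts, medians or sums. All members are named, with the 3 genes most like Fos, Jun, Junb and Atf3. Of each other list, up to 3 called genes by smallest p are named. One list gene that this rule takes is not reported here. The members, lists and motifs were chosen with earlier results of these data known. No 2 replicates agreed within sampling noise.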

Additional observations from a re-analysis of the deposited data

Results flagged for a closer look

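Atf3 had opposite signs of the ES effect in the 2 genotypes. Both KO ES libraries (75.0 and 87.4 CPM) lay below both KO NT libraries (99.5 and 179 CPM), whereas both WT ES libraries (27.2 and 37.3 CPM) lay above both WT NT libraries (20.1 and 20.3 CPM). On the log2 scale the ES effect in KO minus that in WT was -1.44 ± 0.33, with an unadjusted p of 0.00131 and an adjusted p of 0.148 in the edgeR quasi-likelihood test, so the difference did not pass over all genes. It passed in 2 of 14 alternatives, with a replicate term (adjusted p = 0.0220) and without KO NT replicate 1 (-1.81, adjusted p = 0.000572). Over the 14 the adjusted p ranged from 0.000572 to 0.536, and without KO NT replicate 2 the difference was -0.98 (adjusted p = 0.0656). KO NT replicate 2 held both the highest Atf3 level of the Chrm3 table and its highest mitochondrial share, and the part of that library's quality was not tested. Groups of 2 or 3 libraries are too small for a search for single outlying samples.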

How the results depend on the processing

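The 7 calls in old against young were 7 under every other tool and scaling, and 6 to 7 with a library left out. KO against WT in NT, with 6 calls, had 4 without the count filter, 7 with only the 2 groups fitted, 6 under the other tools and scalings, and 4 to 7 with a library left out. The other counts moved more. ES in WT, with 0, had 1 by DESeq2, 5 with the replicate term, 6 with only the 2 groups fitted and 0 to 6 with a library left out. ES in KO, with 0, had 1 with the replicate term (Atf3, -0.74, adjusted p = 0.0334) and 0 to 5 with a library left out. KO against WT in ES, with 2, had 1 without the filter, 3 with the replicate term, 4 with only the 2 groups fitted and 0 to 5 with a library left out. The contrast of the 2 ES effects, with 0, had 1 by DESeq2, 3 with the replicate term and 0 to 6 with a library left out. The cause of these moves was not tested, beyond that the spread is shared by all libraries of a table. A library left alone in its group was assumed to vary like the others.

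Of 682 values of single members with an adjusted p under an alternative, 610 kept their direction and side of the threshold, 53 passed only there, 13 no longer passed and 6 changed sign. DESeq2 gave Fosl1 no adjusted p in 4 comparisons, which are not counted. Also not counted are ES in WT and KO against WT in ES with only the 2 groups fitted, where Fosl1 was not tested. Leaving out 1 library, Junb in ES in KO ranged from -0.48 to 0.10 and Jund from -0.29 to 0.13, Fosl1 in KO against WT in ES from -5.34 to 1.32 and Fosl2 from -0.048 to 0.073. By limma-voom Fosl1 in KO against WT in ES was -0.93. Replicate numbers are not said to pair samples, and deviations of same-numbered libraries correlated at -0.01 to 0.10, so the replicate block is given for completeness. Depth limits Fosl1 alone, which had at most 37 counts in a library.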
